A study of Saccharomyces cerevisiae with 10 samples.

Results

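Trehalose is the disaccharide that yeast stores and breaks down around periods of stress, and the genes described here are the 9 that make it, split it or supply its precursor. They were chosen by name: TPS1, TPS2, TPS3 and TSL1 of the trehalose synthase complex, the trehalase genes NTH1, NTH2 and ATH1, and PGM2 and UGP1, which supply UDP-glucose. Each of the 9 had 1 probe set of its own on the array, and all 9 passed the filter on dim signals, among 5365 genes tested of 5656 measured. The samples were a commercial baker's yeast (Saccharomyces cerevisiae) from fed-batch culture, whose strain name is not given in the sources used here. Compressed cells lay on aluminium trays in an oven with air blown at 37 degrees, and cells were taken before drying (0 h) and after 1, 2, 4 and 8 h. Per the series' design text the experiment was done in duplicate independently, which gives 2 Affymetrix Yeast Genome S98 arrays at each time and 10 arrays in all. Every dried group had warm air, oven time and water loss together, and these cannot be told apart here.

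Trehalose synthesis starts when Tps1 joins UDP-glucose and glucose 6-phosphate into trehalose 6-phosphate, from which Tps2 removes the phosphate. Tsl1 and Tps3 are large related subunits that hold and regulate the complex. Nth1 and its paralog Nth2 are neutral trehalases, of which Nth1 is the main enzyme in the cytosol and is switched on by phosphorylation, while Ath1 is the acid trehalase, which acts on trehalose at the cell surface and in the vacuole. Pgm2 is the main phosphoglucomutase and Ugp1 makes UDP-glucose, which also feeds glycogen and the cell wall. Baker's yeast is known for the large trehalose stores that go with survival of drying. Much of the pathway's control lies in the enzymes themselves, so transcript levels do not give trehalose content, which was not analysed here.

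Values below are log2 of the signal over the median of all probe sets on the same array, so that 1 unit is a doubling and 0 is the array median. Array medians ranged from 23.6 to 115.4 in signal intensity. The dimmest arrays were replicate 1 at 8 h (23.6) and replicate 1 at 2 h (28.7). Actin probe sets at the 3' and 5' ends, whose ratio tracks RNA integrity, gave ratios of 6.44 and 6.64 on these arrays. Replicate 1 of 0 h, with a median of 42.3, gave 5.38, and the rest gave 2.62 to 3.90. That 0 h array enters every comparison with 0 h. At every time replicate 1 had the higher actin ratio of the replicates, by the least at 4 h (3.15 and 3.10). Replicate arrays had Pearson correlations of 0.942 to 0.980 across genes, and at most 0.61% of probe sets had identical values on any pair of arrays. As a check on the kind of cell, 10 haploid and mating genes had a summed signal of 6.72 to 10.3 times the array median at 0 h, 9.31 to 13.7 at 1 h, 9.61 to 19.9 at 2 h, 7.51 to 8.02 at 4 h and 7.68 to 9.12 at 8 h. At least 7 of them lay below the array median on both arrays at every time. The 11 sporulation genes summed to 4.48 to 5.84 times the array median over all 10 arrays, with at least 9 below the median on both arrays at every time. The part of these markers in the results was not tested.

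All 9 genes were above the array median on every array, and none was at the floor set for dim signals. The lowest single value was that of TPS3 on replicate 2 at 1 h, at 3.60 times the array median. By mean signal the 9 probe sets stood above 72.2% to 95.1% of the genes tested. Probe sets differ in affinity, so these figures say that the signals were well above dim and do not rank the transcripts. The largest gap between replicate arrays at 1 time ran from 0.34 for UGP1 to 0.69 for PGM2, a scale against which the changes below can be read.

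**Figure D1:**
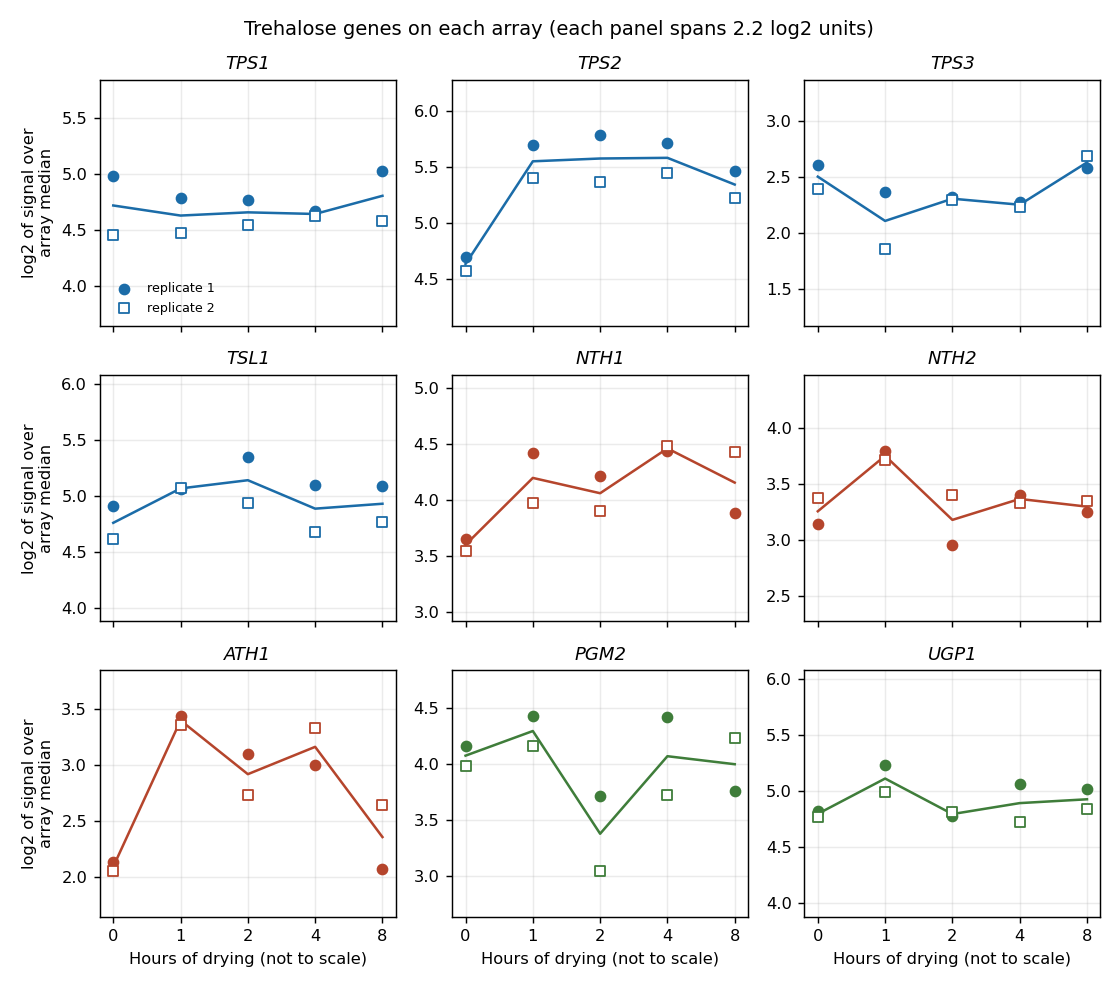
Signal of the 9 trehalose genes on each of the 10 arrays, as log2 over the array median, against hours of drying on an axis that is not to scale. Filled circles are replicate 1, open squares replicate 2, and lines join the means of 2 arrays. TPS2 and NTH1 are higher on all 8 dried arrays than on both 0 h arrays, ATH1 is highest at 1 h and has returned towards its 0 h value at 8 h, and the dried TPS1 arrays overlap with those of 0 h.

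Among the 4 synthase genes, 0 passed the test against 0 h at any dried time, and the one with the values farthest from 0 h was TPS2. Over all genes tested, 2.61%, 1.51%, 1.45% and 0.951% passed at 1, 2, 4 and 8 h, so 0 of 4 is not a result about these genes. The 0 h arrays read 4.70 and 4.57 for TPS2, the gene of trehalose 6-phosphate phosphatase. It read 5.70 and 5.41 at 1 h, 5.79 and 5.37 at 2 h, 5.72 and 5.45 at 4 h, and 5.46 and 5.23 at 8 h. All 8 dried arrays were therefore above both 0 h arrays, and the 3 earlier dried times lay close together. Over all genes tested, 4.49% had all 8 dried arrays above both 0 h arrays, and among the 9 trehalose genes 2 did, TPS2 and NTH1. The changes of TPS2 against 0 h were 0.92 ± 0.29 (SE, n = 2 arrays per time), 0.94 ± 0.29, 0.95 ± 0.29 and 0.71 ± 0.29 at 1, 2, 4 and 8 h. These correspond to 1.89-fold, 1.92-fold, 1.93-fold and 1.63-fold signals. None passed limma's test after adjustment over all genes, with adjusted p values of 0.135, 0.145, 0.171 and 0.470. The mean of the 4 dried times was 0.88 ± 0.23 above 0 h, a 1.84-fold signal with a 95% interval of 1.31 to 2.58, and missed the threshold of 0.05 (adjusted p = 0.0684). This change of the mean passed after quantile normalization (0.83, adjusted p = 0.0022), cyclic loess (0.81, adjusted p = 0.0075) or array weights (0.88, adjusted p = 0.0176), and with both dim arrays left out (0.80, adjusted p = 0.0281). It was 0.93 without replicate 2 of 2 h, 0.91 without that of 8 h, and 0.82 to 0.94 with any 1 array left out. Of 23 alternatives for the mean, 7 passed and 16 did not. With the replicate number as a block in the fit, the mean and the changes at 1 h and 2 h passed.

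TPS1, which encodes the synthase itself, gave nearly level values over time. Its arrays read 4.98 and 4.46 at 0 h, 4.79 and 4.47 at 1 h, 4.77 and 4.54 at 2 h, 4.66 and 4.62 at 4 h, and 5.03 and 4.58 at 8 h. Of the 8 dried arrays, 7 lay between the 0 h arrays. The changes were -0.09, -0.06, -0.08 and 0.09 ± 0.29 at 1, 2, 4 and 8 h, all well inside the gap of 0.52 between the 0 h arrays. For the mean of the dried times the change was -0.04 ± 0.23, with a 95% interval from 0.697-fold to 1.37-fold. A doubling or a halving of the TPS1 signal thus lies outside that interval, while smaller changes do not.

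TPS2 and TPS1 can be set against each other within an array, where the scaling of the array cancels. This comparison was added after the values were seen and is given without a test. The log2 difference of TPS2 minus TPS1 was -0.28 and 0.12 on the 0 h arrays. It was 0.91 and 0.94 at 1 h, 1.02 and 0.82 at 2 h, 1.05 and 0.83 at 4 h, and 0.44 and 0.64 at 8 h. All 8 dried arrays exceeded both 0 h arrays, with the smallest differences among them at 8 h. TPS2 alone already did so and TPS1 was nearly level, so this is not a second reading of TPS2. How many other pairs of genes do the same was not computed.

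The genes of the regulatory subunits gave 0 calls, with intervals that allow changes of up to 1.99-fold for TSL1 at 2 h and down to 0.532-fold for TPS3 at 1 h. For TSL1 the 0 h arrays read 4.91 and 4.61 and the dried arrays ran from 4.67 to 5.34, with 6 of 8 above both 0 h arrays. Only at 1 h and 2 h were both of its arrays above both 0 h arrays, as for 29.4% and 18.6% of all genes. The changes of TSL1 were 0.31, 0.38, 0.13 and 0.17 ± 0.29 at 1, 2, 4 and 8 h, with adjusted p values of 0.639 to 0.942. TPS3 had 0 h values of 2.61 and 2.39 and read 2.36 and 1.85 at 1 h, 2.31 and 2.29 at 2 h, 2.27 and 2.23 at 4 h, and 2.57 and 2.68 at 8 h. The dried arrays of TPS3 at 1, 2 and 4 h were thus below both 0 h arrays, and those at 8 h were not. Over all genes tested, 22.8%, 24.4% and 18.8% were below both 0 h arrays at 1, 2 and 4 h. The changes of TPS3 were -0.40, -0.20, -0.25 and 0.13 ± 0.24, of which none passed (adjusted p = 0.525 to 0.944). TSL1 and TPS3 are related in sequence, as are NTH1 and NTH2, and how far their probes tell each pair apart was not tested.

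ATH1, the acid trehalase gene, was the only one of the 9 to pass the test against 0 h. It rose 2.47-fold by 1 h, with a 95% interval of 1.68 to 3.64, and stood 2.10-fold above 0 h at 4 h, where the test was missed. By 8 h its signal was 1.20-fold that of 0 h, and it had fallen from 1 h. Because RNA came from whole cell populations, fewer cells with a transcript and less of it per cell cannot be told apart here.

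The ATH1 arrays read 2.13 and 2.05 at 0 h, 3.44 and 3.36 at 1 h, 3.10 and 2.73 at 2 h, 2.997 and 3.32 at 4 h, and 2.07 and 2.64 at 8 h. All arrays at 1, 2 and 4 h were above both 0 h arrays. At 8 h replicate 1 lay between the 0 h arrays and replicate 2 above. Over all genes tested, 29.4%, 18.6% and 25.5% had both arrays above both 0 h arrays at 1, 2 and 4 h. The change at 1 h was 1.31 ± 0.26 (limma, adjusted p = 0.0139), which placed ATH1 at rank 114 of 5365 genes by size of rise. At that time 2.61% of the genes tested passed, 2.22% as higher, against 1 of the 9 trehalose genes. A count of 1 among 9 is not a result about the group. The size of this change depended little on any 1 array of the comparison, while the call needed all of them. With replicate 1 or 2 of 0 h left out the change was 1.35 or 1.26, and with replicate 1 or 2 of 1 h left out 1.27 or 1.35, with adjusted p values of 0.109, 0.154, 0.186 and 0.116. It was also lost without an intensity trend (adjusted p = 0.0706) and without scaling. The 140 genes that passed at 1 h became 47, 29, 18 and 42 when these arrays were left out in the same order.

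Later changes of ATH1 against 0 h were 0.83 ± 0.26 at 2 h (adjusted p = 0.151), 1.07 ± 0.26 at 4 h (adjusted p = 0.0628) and 0.26 ± 0.26 at 8 h (adjusted p = 0.844). At these times 1.51%, 1.45% and 0.951% of the genes tested passed, and 0 of the 9 did, with 3, 3 and 1 of them at an unadjusted p under 0.05, which 13.1%, 10.7% and 9.26% of all genes reached. The 4 h change of ATH1 passed in 10 of 24 alternative settings, among them 75th percentile scaling (1.04, adjusted p = 0.0483) and leaving out replicate 1 or 2 of 2 h (adjusted p = 0.0444 and 0.0433) or of 8 h (adjusted p = 0.0278 and 0.0281). Of the 8 dried arrays of ATH1, 7 were above both 0 h arrays, a count that was not taken over all genes. The mean of the dried times was 0.87 ± 0.21 above 0 h, a 1.82-fold signal (adjusted p = 0.0420). Among all genes 2.11% passed that comparison, and the F test over the 4 dried times passed for 3.28% of genes and for ATH1 (adjusted p = 0.0318). Leaving out replicate 1 or 2 of 0 h or of 1 h gave adjusted p values of 0.333, 0.435, 0.108 and 0.0939 for the mean. The change itself ran from 0.80 to 0.94 with any 1 array left out. Leaving out replicate 1 of 2 h or replicate 2 of 4 h gave 0.0518 and 0.0822, and a floor at 0.2 of the median, no filter and no intensity trend gave 0.0908, 0.0635 and 0.148. The F test was also lost without either array of 0 h or 1 h (adjusted p = 0.138, 0.163, 0.191 and 0.153) or without replicate 2 of 4 h (0.0596).

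From 1 h to 8 h the ATH1 signal fell by 1.04 ± 0.26 log2 units, which is 2.06-fold (adjusted p = 0.0399), where 3.45% of all genes passed and 2.42% as lower. Over all genes that was 55 higher and 130 lower, and 78 and 93 with 75th percentile scaling, where ATH1 changed by -0.89 (adjusted p = 0.0580). Both 8 h arrays were below both 1 h arrays, as for 27.5% of all genes. The 8 h replicate with the lower value, 2.07, was the dimmest array of the series, and without it the change was -0.76 (adjusted p = 0.281). The call was likewise lost without replicate 1 or 2 of 0 h (adjusted p = 0.0722 and 0.0713) or of 1 h (adjusted p = 0.303 and 0.189).

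NTH1, the main neutral trehalase gene, read 3.65 and 3.54 at 0 h, 4.41 and 3.97 at 1 h, 4.21 and 3.90 at 2 h, 4.43 and 4.48 at 4 h, and 3.88 and 4.43 at 8 h. All 8 dried arrays were above both 0 h arrays, by the least on the dim replicate 1 of 8 h. Its changes were 0.60, 0.46, 0.86 and 0.56 with an SE of 0.27 at 1, 2, 4 and 8 h, and none passed (adjusted p = 0.350, 0.515, 0.193 and 0.554). The mean of the dried times was 0.62 ± 0.22 above 0 h, a 1.53-fold signal with a 95% interval of 1.11 to 2.12 (adjusted p = 0.223). NTH1 is thus not shown to have changed.

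NTH2 gave 0 calls, and its value farthest from 0 h was that at 1 h. Its 0 h arrays read 3.14 and 3.37, those at 1 h 3.79 and 3.71, and those at the later times 2.95 to 3.40. Only the 1 h arrays lay wholly above the 0 h arrays, as for 29.4% of all genes at 1 h. The change of NTH2 there was 0.50 ± 0.24 (adjusted p = 0.389). At 2, 4 and 8 h the changes were -0.08, 0.11 and 0.04, each smaller than the SE of 0.24, and carry no direction. The step from 1 h to 2 h, at -0.57 ± 0.24, did not pass (adjusted p = 0.293).

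**Figure D2:**
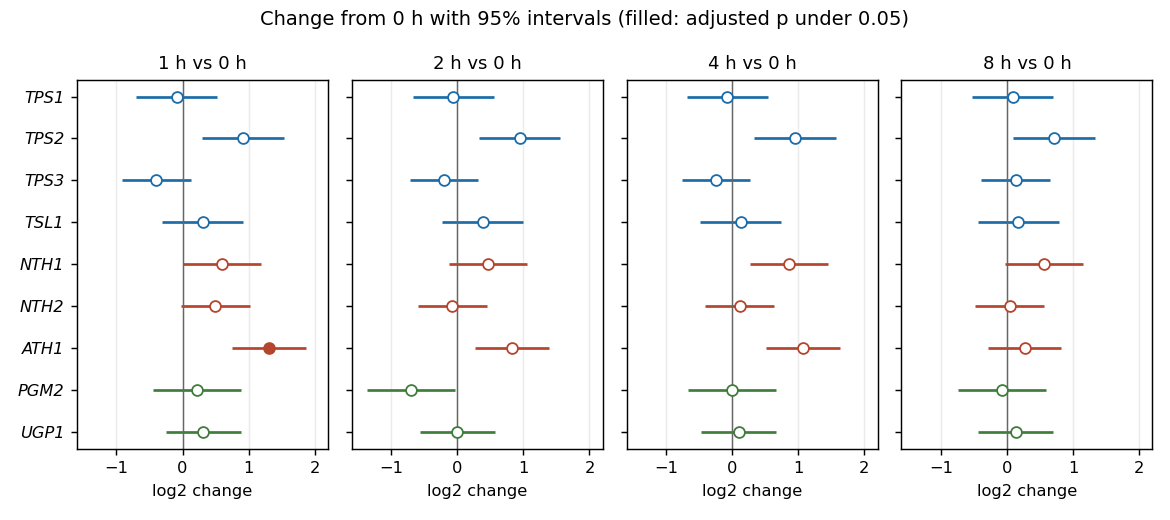
Log2 change of each trehalose gene at 1, 2, 4 and 8 h against 0 h, with 95% intervals from limma and 2 arrays per time. The filled point marks an adjusted p under 0.05, and blue stands for the synthase complex, red for trehalases and green for UDP-glucose supply. ATH1 at 1 h is the one filled point, and the intervals of TPS2 lie above 0 at all 4 times while its adjusted p values do not pass.

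The 4 comparisons share the 0 h arrays, so a high or low 0 h array moves all of them together. To remove the scaling of the arrays, each trehalase was also expressed as its log2 difference from TPS1 on the same array. The 3 differences share the TPS1 value of each array, so they are not separate readings and carry whatever else affects TPS1. TPS1 had its highest value, 5.03, on replicate 1 of 8 h, the dimmest array. NTH1 minus TPS1 was -1.33 and -0.91 at 0 h, -0.37 and -0.50 at 1 h, -0.56 and -0.64 at 2 h, -0.23 and -0.14 at 4 h, and -1.15 and -0.16 at 8 h. Replicate 1 of 8 h fell within the 0 h range and the other 7 dried arrays were above it. The dried mean exceeded the 0 h mean by 0.65, or 1.57-fold (-0.47 ± 0.33, SD, n = 8, against -1.12 ± 0.29, SD, n = 2, exact two-sided permutation p = 0.0444). The SD of the dried arrays spans 4 times with 2 arrays each, so it is not a spread between replicates alone. With the exact permutation p adjusted over the 3 trehalases, the difference of NTH1 from TPS1 did not pass (adjusted p = 0.10).

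ATH1 minus TPS1 was -2.85 and -2.41 at 0 h. It was -1.35 and -1.11 at 1 h, -1.67 and -1.81 at 2 h, -1.67 and -1.30 at 4 h, and -2.95 and -1.95 at 8 h. Here too replicate 1 of 8 h was the exception, below both 0 h arrays, while 7 of 8 dried arrays were above them. For NTH1 and ATH1 alike, the share of other genes with such a count was not computed. The difference of 0.90, or 1.87-fold, had an exact permutation p of 0.0667 (adjusted p = 0.10). NTH2 minus TPS1 differed by 0.18 between dried and 0 h arrays (exact permutation p = 0.644), with 2 of 8 dried arrays above the 0 h range. The smallest p that 8 arrays against 2 can give is 0.0222. Leaving out replicate 1 of 8 h gave differences of 0.75 for NTH1 and 1.08 for ATH1, each with an exact permutation adjusted p = 0.0417. That array was the exception in both genes, so its removal separates the groups fully and forces the smallest p the remaining arrays can give, which is no support for a change. It was the only 1 of 12 alternatives with an adjusted p under 0.05, and the highest of the others was 0.50.

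**Figure D3:**
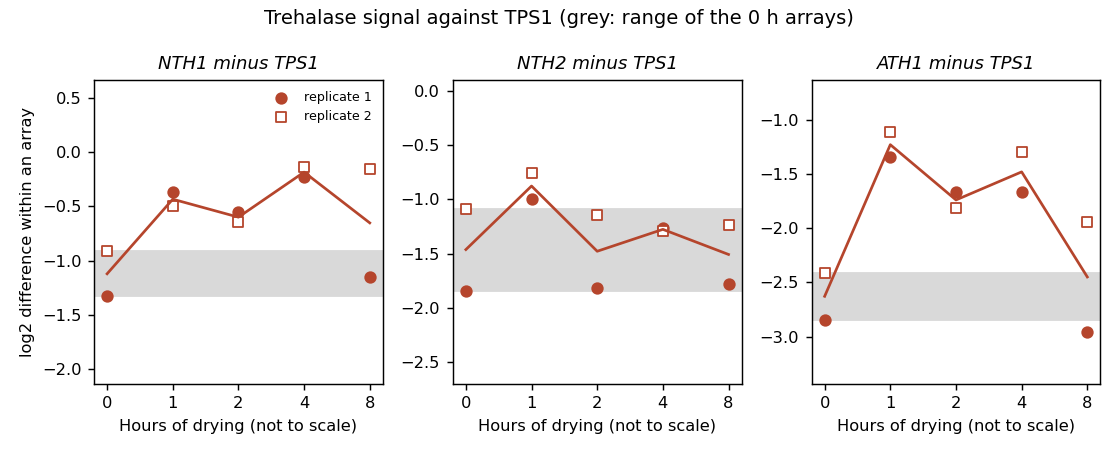
Log2 difference between each trehalase and TPS1 within an array, against hours of drying on an axis that is not to scale, with circles for replicate 1, squares for replicate 2 and a line through the means. The grey band spans the 2 arrays of 0 h. For NTH1 and ATH1, 7 of the 8 dried arrays lie above the band and replicate 1 of 8 h does not, while most NTH2 values lie within it.

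The genes that supply UDP-glucose gave 0 calls. PGM2, the main phosphoglucomutase gene, read 4.16 and 3.99 at 0 h, 4.43 and 4.16 at 1 h, 3.71 and 3.04 at 2 h, 4.42 and 3.72 at 4 h, and 3.76 and 4.24 at 8 h. It had the widest gaps between replicates of the 9 genes. Only at 2 h were its arrays below both 0 h arrays, as for 24.4% of all genes. The change there was -0.70 ± 0.31 (adjusted p = 0.358), and from 1 h to 2 h it was -0.92 ± 0.31 (adjusted p = 0.170), with 1.85% of all genes passing that step. The step from 1 h to 2 h of PGM2 passed only with both dim arrays left out, among 24 alternatives. From 2 h to 4 h the change was 0.69 ± 0.31 (adjusted p = 0.660). UGP1, which encodes UDP-glucose pyrophosphorylase, read 4.82 and 4.77 at 0 h and 4.72 to 5.23 on the dried arrays. Its changes of 0.32, 0.00, 0.10 and 0.13 ± 0.27 had adjusted p values of 0.686 to 0.999.

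In the steps from 2 h to 4 h and from 4 h to 8 h, 0 of the 9 genes passed, where 0% and 0.0186% of all genes did. At an unadjusted p under 0.05 there were 1 of 9 trehalose genes and 7.44% of all genes for the first step, and 1 of 9 and 7.46% for the second. The member in the second was ATH1, at -0.81 ± 0.26 (adjusted p = 0.526). Its 8 h arrays were both below both 4 h arrays, as for 17.8% of all genes. Over all 9 genes the median change against 0 h was 0.32, 0.00, 0.11 and 0.13 at 1, 2, 4 and 8 h, beside 0.04, -0.05, 0.02 and 0.01 over all genes tested. With 75th percentile scaling the median of all genes at 1 h moved to -0.11 and that of the 9 to 0.17, since that scaling shifts all genes of an array alike.

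**Figure D4:**
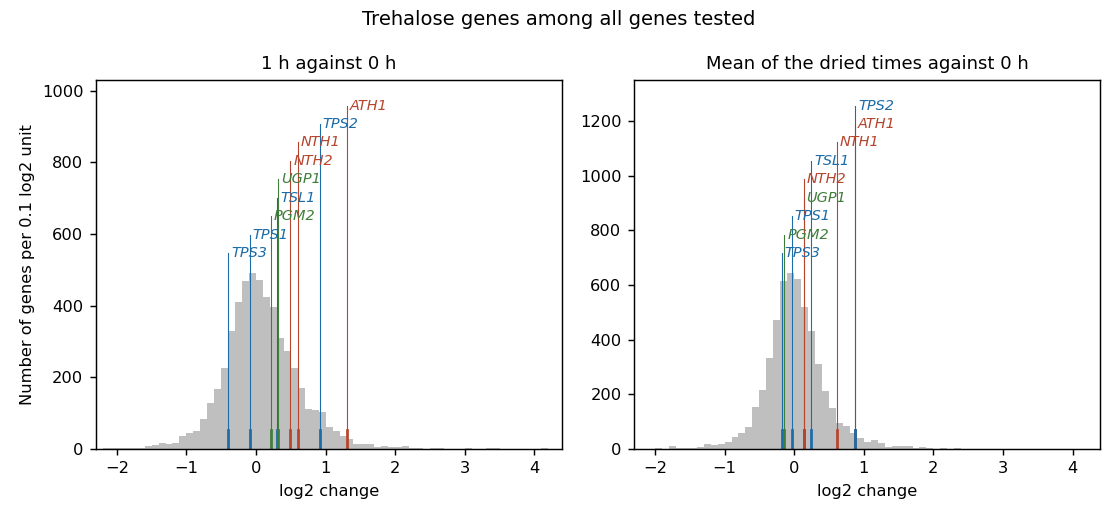
Distribution of log2 changes over the 5365 genes tested (grey bars, number of genes per 0.1 log2 unit) with the 9 trehalose genes marked by coloured lines whose heights serve only to separate the names. The left panel shows 1 h against 0 h and the right panel the mean of the dried times against 0 h. ATH1 and TPS2 lie to the right of the bulk in both panels, and TPS1 lies near its centre. NTH1 lies above 85.8% of the genes in the left panel and 92.7% in the right.

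A list of 10 other genes tied to the pathway gave 0 calls against 0 h at any time, where 0.951% to 2.61% of all genes passed, so that 0 of 10 is near the background. It held PGM1, the minor phosphoglucomutase gene, the glucose-phosphorylating enzymes HXK1, HXK2, GLK1 and EMI2, the sugar transporter MAL11, which can import trehalose, the Nth1 inhibitor gene DCS1 and its paralog DCS2, and the 14-3-3 genes BMH1 and BMH2, whose proteins activate Nth1. The median change of the list was -0.09, 0.03, -0.15 and -0.03 at 1, 2, 4 and 8 h. The change farthest from 0 was that of HXK2, the main hexokinase gene during growth on glucose, at -1.25 ± 0.44 at 4 h (adjusted p = 0.253). HXK2 read 4.20 and 4.29 at 0 h, 3.78 and 3.85 at 1 h, 3.15 and 3.73 at 2 h, 3.96 and 2.02 at 4 h, and 3.78 and 3.98 at 8 h. All 8 dried arrays were below both 0 h arrays, as for 3.88% of all genes, and the size at 4 h rested on 1 array. The mean of the dried times was -0.71 ± 0.35 against 0 h (adjusted p = 0.462). MAL11 read 5.86 and 5.43 at 0 h and 4.68 and 5.08 at 4 h, a change of -0.76 ± 0.30 (adjusted p = 0.330). DCS1 changed by 0.45 ± 0.24 at 1 h (adjusted p = 0.457).

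The 4 regulators of stress genes, MSN2, MSN4, HSF1 and GIS1, also gave 0 calls against 0 h, which at the same shares of all genes is near the background. GIS1, a transcription factor of stationary phase genes, changed by 0.75 ± 0.29 at 4 h (adjusted p = 0.319), which was the farthest from 0 of the 4. MSN4 went the other way, from 2.06 and 2.09 at 0 h to values of 1.11 to 1.93 on the dried arrays. All 8 dried arrays of MSN4 were below both 0 h arrays, as for 3.88% of all genes, and its changes did not pass. As references for a strong change on these arrays, the Hsp70 gene SSA4 rose by 4.15 ± 0.31 at 1 h and HSP104, the disaggregase gene, by 2.17 ± 0.30.

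Glycogen draws on the same UDP-glucose, and glycerol is the other main carbohydrate solute of stressed yeast. Of 14 glycogen genes, 1 passed at 2 h, as lower, and 0 at 1, 4 and 8 h. Over all genes 1.51% passed at 2 h, 0.69% as lower. A count of 1 among 14 is not a result about the list. The 1 was GAC1, the gene of a phosphatase subunit that promotes glycogen synthesis, at -1.28 ± 0.27 (adjusted p = 0.0231). GAC1 had values from -1.13 to -0.90 at 1, 4 and 8 h that did not pass (adjusted p = 0.110, 0.0933 and 0.0645), and its mean over the dried times passed at -1.08 ± 0.21 (adjusted p = 0.0115). Among 10 glycerol genes, STL1, the glycerol importer gene, rose at all 4 times, from 1.74 ± 0.41 at 2 h (adjusted p = 0.0487) to 2.56 ± 0.41 at 1 h (adjusted p = 0.0036), and 0 fell. Over all genes 2.22%, 0.82%, 1.08% and 0.503% passed as higher at 1, 2, 4 and 8 h, and 1.03% from 1 h to 8 h. From 1 h to 8 h GPD2, a glycerol 3-phosphate dehydrogenase gene, rose by 1.36 ± 0.32 (adjusted p = 0.0285), from -0.96 to 0.40 against 0 h, neither of which passed (adjusted p = 0.155 and 0.786). The median changes of the glycogen genes were -0.14, -0.34, -0.16 and 0.16 at 1, 2, 4 and 8 h. Those of the glycerol genes were -0.09, -0.33, -0.03 and 0.13, beside 0.32, -0.0019, 0.11 and 0.13 for the trehalose genes. These medians were not tested against each other.

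By Pearson correlation over the 10 arrays, the genes with values most like those of TPS1 were MPC2, ADH3 and YNL208W, with r of 0.936, 0.915 and 0.903. For NTH1 they were FYV8, IMH1 and STH1, with r of 0.939, 0.932 and 0.902. For PGM2 they were BOI2, UBP11 and PML1, with r of 0.934, 0.934 and 0.930. Each is the highest of 5356 values, over arrays that share their times and their brightness, so these are descriptions only.

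**Figure D5:**
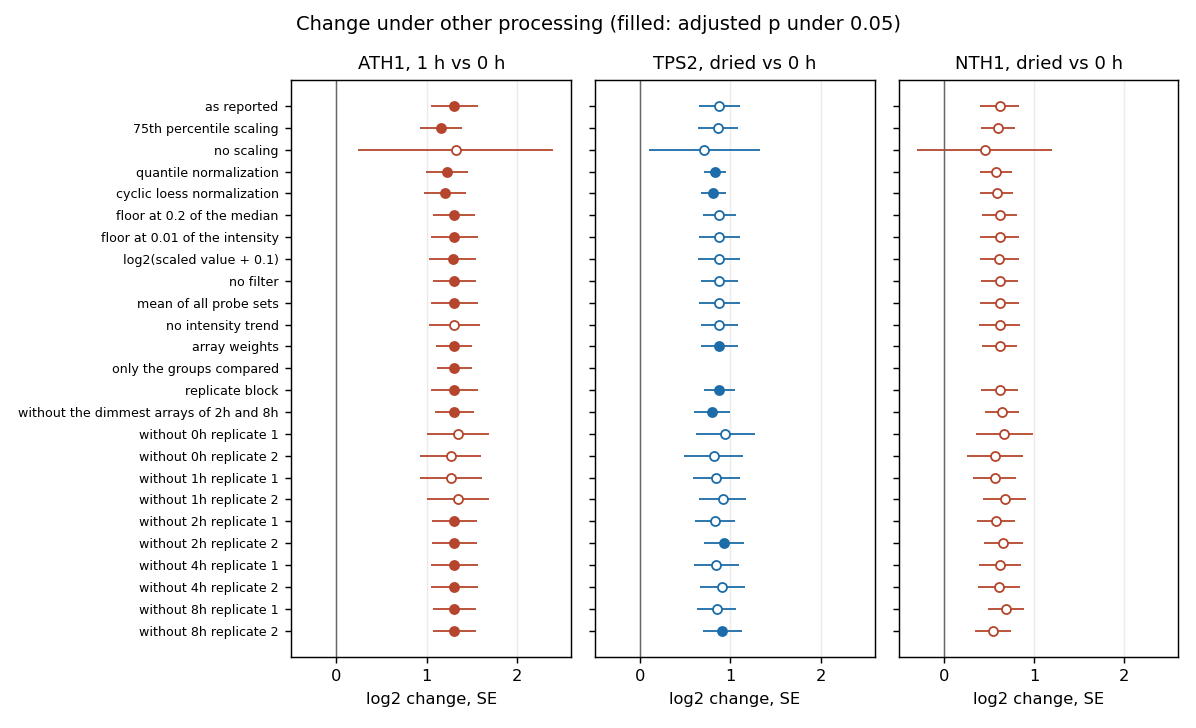
Log2 change with its SE under each processing setting, for ATH1 at 1 h against 0 h and for TPS2 and NTH1 as the mean of the dried times against 0 h. Filled points have an adjusted p under 0.05, and the fit with only the groups compared applies to the left panel alone. All points lie above 0, the ATH1 call is lost without scaling, without the intensity trend or when an array of 0 h or 1 h is left out, and NTH1 passes in no setting.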

How the data were processed

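The values deposited by the authors were linear signal intensities, 1 column for each of 10 arrays and 9335 probe sets. GCOS, the Affymetrix array software, is named in the submitters' processing notes, and its version and summary settings are not given in the sources used here. The labels also describe a table of ratios, scaled to the 50th percentile and to 0 h. That scaling had not been applied to these intensities, since array medians differed. No detection calls were used, and the number of arrays limits the precision.

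The 60 control probe sets were left out. Intensities were expressed relative to the array median, raised to a floor of 0.1 where lower, and put on the log2 scale. A mean under 0.2 of the median led to exclusion. Of the others on the array, 6504 were assigned to 1 gene, 328 to several and 2443 to none. Symbols were updated through gene identifiers to RefSeq's R64 table, and the brightest probe set stood for its gene. No sequences or coordinates were used.

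Group means were fitted to all 10 arrays with limma 3.58.1 in R 4.3.3, with eBayes and an intensity trend, tested on simulated data. Tests were two-sided, with Benjamini-Hochberg adjustment over 5365 genes and a threshold of 0.05. Errors are limma's SE, drawn from all 10 arrays. Trehalase minus TPS1 was compared by exact permutation of 45 splits, adjusted over 3 tests. The members and lists were chosen with earlier results of these data known. All 9 members are named. Of the other pathway genes and regulators, those with the largest change in their list are named, as are SSA4 and HSP104, glycogen and glycerol genes that passed, and the 3 genes most like TPS1, NTH1 and PGM2. DCS1, MAL11, MSN2, MSN4 and HSF1 were added after their values were seen.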

Additional observations from a re-analysis of the deposited data

How the results depend on the processing

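Among the 9 trehalose genes, the number that passed depended on the processing in most comparisons, and the members concerned were nearly always ATH1 and TPS2. At 1 h the count of 1 was 0 without scaling or without an intensity trend, and 2 (ATH1 and TPS2) after quantile normalization, cyclic loess, array weights, with only the groups compared, with the replicate block, or without both dimmest arrays, those of 2 h and 8 h. At 2 h the count of 0 was 2 after quantile normalization and 1 after cyclic loess or with the replicate block, which was TPS2. At 4 h the count of 0 was 1 with 75th percentile scaling, array weights or only the groups compared, 2 after quantile normalization or cyclic loess, and 3 (ATH1, NTH1 and TPS2) without the dimmest arrays. From 1 h to 2 h the count of 0 was 1, PGM2, without the dimmest arrays. From 1 h to 8 h the count of 1 was 0 with 75th percentile scaling, no scaling, a floor at 0.2 of the median, no filter, no intensity trend, only the groups compared or without the dimmest arrays. For the mean of the dried times the count of 1 was 0 without scaling, with the higher floor, without the filter or without the trend, and 2 after quantile normalization, cyclic loess, array weights, with the replicate block or without the dimmest arrays. For the F test the count of 1 was 0 in the same 4 settings and 2 after quantile normalization or cyclic loess. With 1 array left out, the counts ran from 0 to 1 at 1 h, at 4 h, from 1 h to 8 h and in the F test, and from 0 to 2 for the mean of the dried times. The cause of these shifts was not tested. At 8 h, and in the steps from 2 h to 4 h and from 4 h to 8 h, the count was 0 in all 24 alternatives.

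ATH1, TPS2 and NTH1 stayed above 0 h in all alternatives at 1 h, at 4 h and for the mean of the dried times. Values that changed sign were all uncalled, and the largest of them as reported were 0.46 for NTH1 and 0.38 for TSL1 at 2 h. Without scaling the median of all genes moved to -0.67 at 2 h, 0.27 at 4 h, -0.29 at 8 h and -0.17 for the mean, and with it TSL1 (-0.24) and NTH1 (-0.17) at 2 h, TPS1 (0.18), TPS3 (0.00276) and PGM2 (0.25) at 4 h, TPS1 (-0.22), TPS3 (-0.18), TSL1 (-0.14), NTH2 (-0.27), ATH1 (-0.042) and UGP1 (-0.18) at 8 h, and NTH2 (-0.023) and UGP1 (-0.031) for the mean. At 2 h, 75th percentile scaling gave 0.037 for TPS1, 0.022 for NTH2 and 0.10 for UGP1, quantile normalization 0.032 and cyclic loess 0.014 for NTH2. Without the dimmest arrays NTH2 (0.15) and UGP1 (0.018) turned at 2 h and TPS1 (-0.13) and PGM2 (0.16) at 8 h, and quantile normalization gave -0.031 for TPS1 at 8 h. With 1 array left out, TPS1 ran from -0.35 to 0.17 at 1 h, -0.32 to 0.20 at 2 h, -0.34 to 0.19 at 4 h, -0.18 to 0.35 at 8 h and -0.30 to 0.23 for the mean. NTH2 ran from -0.30 to 0.15 at 2 h, -0.0057 to 0.23 at 4 h and -0.075 to 0.16 at 8 h, UGP1 from -0.031 to 0.027 at 2 h and -0.073 to 0.26 at 4 h, PGM2 from -0.35 to 0.34 at 4 h and -0.31 to 0.16 at 8 h, TSL1 from -0.085 to 0.34 at 4 h and ATH1 from -0.018 to 0.55 at 8 h. The differences from TPS1 within an array ran from 0.45 to 0.86 for NTH1, -0.20 to 0.56 for NTH2 and 0.68 to 1.12 for ATH1.

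Over all genes, the counts that passed at 1, 2, 4 and 8 h were 140, 81, 78 and 51. Without scaling they were 1, 0, 0 and 0, and the highest were 530 with only the groups compared at 1 h, 248 and 231 without the dimmest arrays at 2 h and 4 h, and 187 without replicate 2 of 8 h at 8 h. From 1 h to 2 h, 2 h to 4 h, 4 h to 8 h and 1 h to 8 h the counts of 99, 0, 1 and 185 reached 404, 86, 40 and 474, and those of the mean and of the F test, 113 and 176, reached 236 and 549. With 1 array left out, the counts ran from 18 to 175 at 1 h, 17 to 193 at 2 h, 26 to 132 at 4 h, 14 to 187 at 8 h, 0 to 215 from 1 h to 2 h, 17 to 474 from 1 h to 8 h, 27 to 192 for the mean and 60 to 376 for the F test. Each lowest count came without an array of 0 h or 1 h. At 2 h the split of 44 higher and 37 lower was 105 and 58 after quantile normalization and 96 and 48 after cyclic loess. From 1 h to 2 h it was 44 and 55, and 36 and 13 with 75th percentile scaling. With the replicate number as a block the counts at 2 h and 8 h were 124 and 96. Deviations of same-numbered arrays from their group means correlated at -0.06 to 0.17 over 10 pairs of times, with 4 over 0.1 and 7 above 0. No label used here says that a number marks a shared experiment, so the reported fits did not pair the arrays by number. Among the 9 trehalose genes, 8, 8, 7, 7 and 4 were higher on replicate 1 at 0, 1, 2, 4 and 8 h. TPS1 and TPS2 were higher on replicate 1 at every time. Whether same-numbered arrays belong together was not settled. TPS2 passed with the replicate block at 1 h, at 2 h and for the mean (adjusted p = 0.0448, 0.0409 and 0.0145). The fit with only the groups compared was not run for the mean and the F test, which use all groups. Where leaving out an array left 1 at a time, it was assumed to vary like the other groups. The 99th percentile of the signal ran from 67.0 to 138.3 times the array median, so scaled values of bright probe sets were not fully comparable between arrays.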
